A study of Mus musculus with 12 samples.

Results

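The genes described here are outputs of the circadian clock and factors that act beside them: the PAR bZIP transcription factors Dbp, Tef and Hlf, their repressor Nfil3, and Ciart, Bhlhe40, Bhlhe41, Usp2, Wee1 and Tsku. They were chosen by name from 18193 genes that had at least 1 probeset of their own on the array. Of the 10 genes, 9 were measured; Tsku was named by no single-gene probeset in the platform annotation and was not analysed here. The study asked how subtherapeutic antibiotics given early in life affect mice. Livers came from 12 male C57BL/6 mice bought from Jackson Labs, kept in 12 h of light and 12 h of darkness with free access to food and water. In 6 mice, low-dose penicillin was given in drinking water after weaning. The other 6 were controls that received no antibiotic. All livers were taken after 7 weeks, and each gave 1 array of liver RNA. The sources used here give neither the dose of penicillin nor the hour at which a liver was taken, and they name no cage or processing batch.

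In the liver clock, the activators Clock and Arntl (Bmal1) switch on genes that carry E-boxes in their regulatory DNA, among them the Per and Cry repressors and Dbp. Dbp, Tef and Hlf, named for a domain rich in proline and acidic residues, bind D-box elements and activate them, while Nfil3 (E4BP4) binds the same elements and represses. Because Dbp and Nfil3 are made at opposite times of day, D-box genes such as those of drug and haem metabolism are driven in a daily rhythm in liver. Ciart (also called Gm129 or Chrono), Bhlhe40 (DEC1) and Bhlhe41 (DEC2) repress E-box transcription, Usp2 is a deubiquitinating enzyme, Wee1 is a kinase that holds back entry into mitosis, and Tsku is a secreted protein made by liver.

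The regulatory sequence next to the start of a gene is shown for 4 of these genes: Ciart, Tef and Bhlhe41, whose windows hold the E-box CACGTG that the clock activators bind, and Dbp, the gene that varied most between mice. Windows of 300 bases, from 250 before to 50 after a start, were available from RefSeq (GRCm38.p6) for 8 of the 10 genes, 10 windows in all. Each was searched for CACGTG, for its variant CACGTT and for the D-box pattern TTANGTAA; both strands were read and no match overlapped another. Capitals mark CACGTG.
Ciart, chr3:95882179-95882478, minus strand: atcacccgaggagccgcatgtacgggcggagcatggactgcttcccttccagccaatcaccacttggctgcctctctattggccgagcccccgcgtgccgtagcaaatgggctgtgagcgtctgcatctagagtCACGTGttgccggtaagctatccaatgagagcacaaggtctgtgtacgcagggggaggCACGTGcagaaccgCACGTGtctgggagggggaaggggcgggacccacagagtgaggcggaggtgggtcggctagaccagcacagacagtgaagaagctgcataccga
Tef, upstream start, chr15:81802423-81802722, plus strand: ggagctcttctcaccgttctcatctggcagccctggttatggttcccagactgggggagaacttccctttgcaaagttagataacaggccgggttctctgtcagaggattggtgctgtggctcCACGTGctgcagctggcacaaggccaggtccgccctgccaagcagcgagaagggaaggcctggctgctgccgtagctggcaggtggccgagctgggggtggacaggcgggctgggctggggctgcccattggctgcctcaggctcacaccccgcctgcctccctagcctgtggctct
Tef, downstream start, chr15:81811164-81811463, plus strand: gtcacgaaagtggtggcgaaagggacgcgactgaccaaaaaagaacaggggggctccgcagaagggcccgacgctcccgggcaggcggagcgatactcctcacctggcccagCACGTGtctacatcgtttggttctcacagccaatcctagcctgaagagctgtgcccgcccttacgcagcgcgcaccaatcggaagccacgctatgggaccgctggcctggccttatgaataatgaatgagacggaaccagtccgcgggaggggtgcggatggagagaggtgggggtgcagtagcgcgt
Bhlhe41, chr6:145865371-145865670, minus strand: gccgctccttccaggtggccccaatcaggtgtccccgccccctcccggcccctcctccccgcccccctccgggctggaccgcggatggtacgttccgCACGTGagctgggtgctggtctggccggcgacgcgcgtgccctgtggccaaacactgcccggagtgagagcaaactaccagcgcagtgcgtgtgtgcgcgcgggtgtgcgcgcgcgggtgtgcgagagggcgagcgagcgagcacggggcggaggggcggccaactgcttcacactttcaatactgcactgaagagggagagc
Dbp, chr7:45704997-45705296, plus strand: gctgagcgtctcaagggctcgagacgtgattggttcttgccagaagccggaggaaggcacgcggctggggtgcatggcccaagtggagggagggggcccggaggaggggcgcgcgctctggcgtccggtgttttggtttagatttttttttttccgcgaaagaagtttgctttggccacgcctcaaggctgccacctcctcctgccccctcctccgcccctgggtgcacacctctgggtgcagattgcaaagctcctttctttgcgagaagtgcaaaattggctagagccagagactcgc
The Ciart window held 3 copies of CACGTG, whose first bases lay 116, 58 and 44 bases before the start. Of 32851 windows of the same length on the assembled mouse chromosomes, 0.0883% held 3 or more and 7.15% held at least 1. Each of the Tef windows held 1 copy, 127 bases before the upstream start and 138 bases before the downstream start, and that of Bhlhe41 held 1. No copy lay in the windows of Dbp, Hlf, Nfil3, Usp2 or Tsku. The 10 windows held 0 matches to CACGTT or TTANGTAA, patterns found in 4.68% and 2.32% of all windows. These matches describe the letters of the windows and do not show binding.

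The values are log2 of the deposited probeset intensities, where 1 unit is a doubling. They are not corrected for the brightness of a probeset, so levels are compared between arrays and not between genes. Each gene is represented by its brightest probeset: 1438211_s_at for Dbp, 1424175_at for Tef, 1434735_at for Hlf, 1418932_at for Nfil3, 1435188_at for Ciart, 1418025_at for Bhlhe40, 1417169_at for Usp2 and 1416773_at for Wee1. These 8 genes were above the filter on dim probesets (a mean of 4.73 or more) and were tested. Bhlhe41 (1421099_at) fell below it, at 4.10 to 4.37 in penicillin livers and 4.15 to 4.28 in control livers, and was not tested in the main comparison. The suffix of the Dbp probeset marks probes that other transcripts may share. All 7 hepatocyte markers measured, among them Alb, Apoa1 and Hnf4a, passed the filter, and the mean deviation of the list lay between -0.20 and 0.20 in penicillin livers and between -0.17 and 0.19 in controls. The arrays hold RNA of whole liver, in which fewer cells of a type and less RNA per cell cannot be told apart.

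Dbp varied more between mice of the same group than any other of the 11899 genes tested. Its SD within groups was 2.05 on the log2 scale, against a median of 0.15 over all genes tested, and its highest and lowest arrays differed 48.7-fold. Usp2 ranked 13th in this SD (1.52), Ciart 27th (1.22), Wee1 47th (1.04), Nfil3 76th (0.87), Tef 104th (0.79), Bhlhe40 216th (0.59) and Hlf 1384th (0.29). Penicillin and control livers were both spread widely, as the plot of values by array shows.

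**Figure D1:**
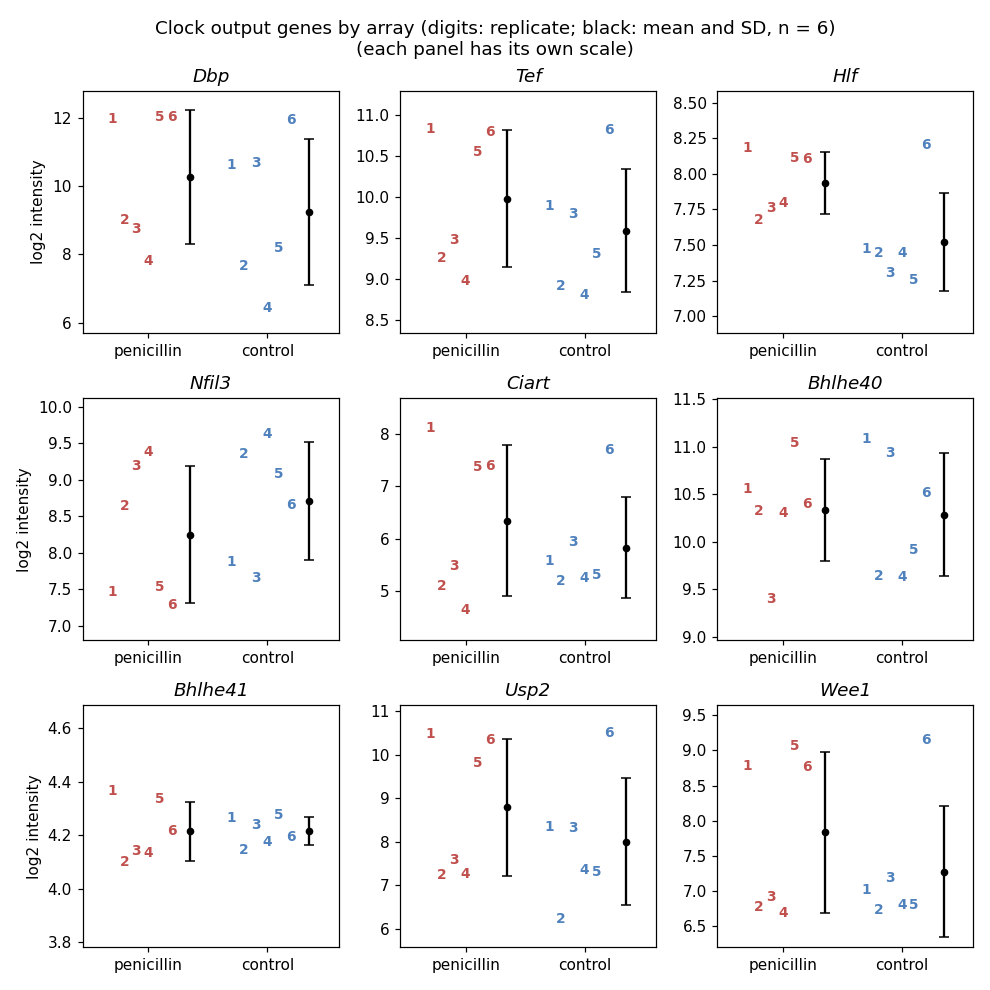
Log2 intensity (vertical axis, a scale of its own in each panel) of the 9 measured genes in each array, with penicillin at the left and control at the right; digits are replicate numbers and black points with bars are the mean and SD of 6 arrays. Dbp, Tef, Usp2, Ciart and Wee1 are highest in penicillin 1, penicillin 5, penicillin 6 and control 6, and Nfil3 runs the opposite way except in control 6. Hlf is also highest in these 4 arrays.

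Dbp, the founding PAR bZIP activator, stood at 7.80, 10.49 and 12.05 (lowest, median, highest) in penicillin livers and at 6.44, 9.40 and 11.96 in control livers. Penicillin 1, penicillin 5, penicillin 6 and control 6 lay together at 11.96 to 12.05. Control 1 and control 3 followed at 10.62 and 10.68, and the other 6 arrays were at 6.44 to 9.01. The second Dbp probeset gave the same order of these sets, at 10.65 to 10.80, 9.46 to 9.49 and 5.51 to 7.73, and its r with the first was 0.997 over the 12 arrays.

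Tef, the activator related to Dbp with a shallower rhythm in liver, stood at 8.98, 10.02 and 10.83 in penicillin livers and at 8.81, 9.55 and 10.82 in control livers. The same 4 arrays were at 10.55 to 10.83, control 1 and control 3 at 9.89 and 9.80, and the other 6 at 8.81 to 9.49. The order of the sets was that of Dbp over a smaller span, 4.1-fold between the extremes. A dimmer Tef probeset that passed the filter (1450184_s_at) did not hold this order: the 4 arrays were at 5.05 to 5.87, control 1 and control 3 at 5.70 and 5.40, and the other 6 at 4.58 to 5.26, with an r of 0.53 with the brightest.

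Usp2 was at 7.24, 8.71 and 10.48 in penicillin livers and at 6.22, 7.84 and 10.50 in control livers. It was graded as Dbp was: 9.82 to 10.50 in the 4 highest arrays, 8.35 and 8.32 in control 1 and control 3, and 6.22 to 7.59 in the other 6. The span was 19.3-fold, and the second probeset (r = 0.986) held the same order of sets.

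Ciart and Wee1 were higher in 4 arrays, with control 1 and control 3 close to or among the others. Wee1 stood at 6.69, 7.84 and 9.07 in penicillin livers and at 6.73, 6.91 and 9.15 in control livers, with penicillin 1, penicillin 5, penicillin 6 and control 6 at 8.77 to 9.15 and all other arrays at 6.69 to 7.18. Ciart was at 4.64, 6.42 and 8.10 in penicillin livers and at 5.18, 5.45 and 7.70 in control livers, with 7.37 to 8.10 in the 4 arrays and 4.64 to 5.94 in the other 8. The second, dimmer Wee1 probeset (r = 0.943) set the same 4 arrays highest, at 5.59 to 6.41 against 4.66 to 5.43 in the others. The gap below the 4 arrays was 1.42 for Ciart, and for the brightest probeset of both genes it was wider than the span of the other 8 arrays.

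Over all 12 arrays Nfil3, the repressor of D-box genes, ran opposite to the activators Dbp and Tef. Its r on deviations from group means was -0.887 with Dbp, -0.802 with Tef and -0.351 with Hlf. Nfil3 stood at 7.29, 8.08 and 9.38 in penicillin livers and at 7.66, 8.87 and 9.63 in control livers. The lowest arrays were penicillin 6, penicillin 1 and penicillin 5 (7.29 to 7.53), and the highest were control 4, penicillin 4 and control 2, which were also the 3 lowest in Dbp. Control 6 broke the pattern: its Nfil3 of 8.66 was the sixth highest of the 12 although its Dbp was among the 4 highest. Control 6 also held the highest mean deviation of the neutrophil markers, 2.28 (2 of 5 measured markers, S100a8 and S100a9, passed the filter; Ngp, Camp and Ltf were below it), where penicillin livers ranged from -1.69 to -0.51 and controls from -0.32 to 2.28. Control 1 and control 3 came next in that list, at 1.455 and 1.22, with Nfil3 at 7.87 and 7.66. The part of neutrophils in the Nfil3 level was not tested.

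**Figure D2:**
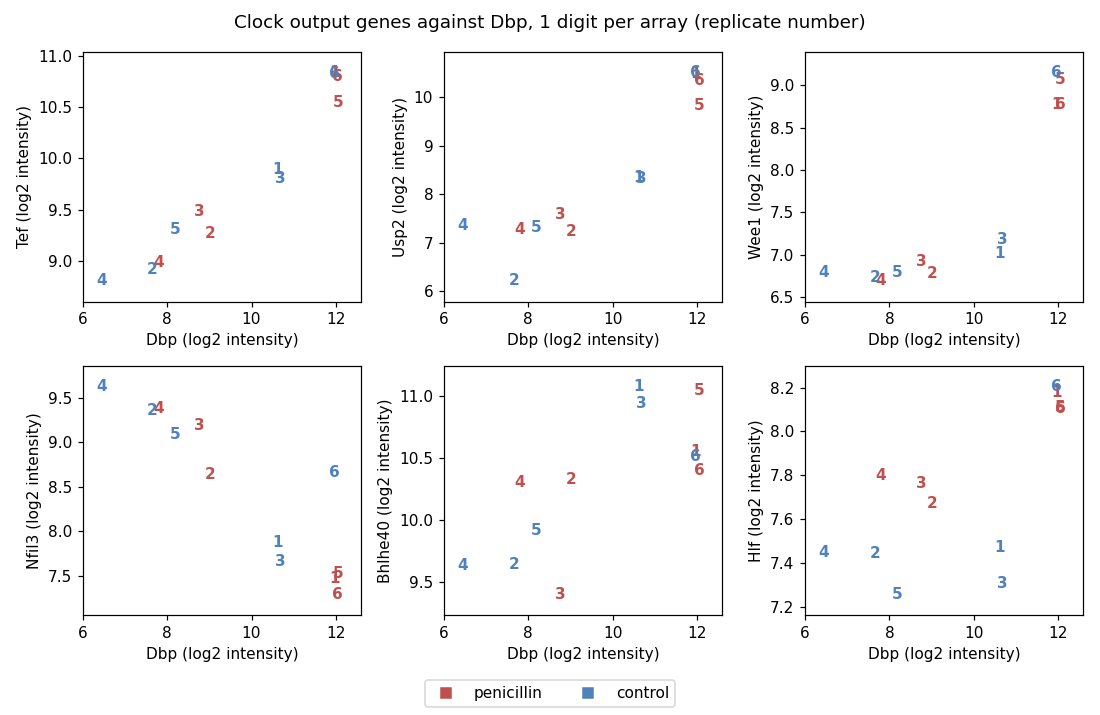
Log2 intensity of 6 genes (vertical axes) against that of Dbp (horizontal axes), 1 digit per array giving its replicate number, penicillin in red and control in blue. Tef and Usp2 climb with Dbp, Wee1 stays at 6.69 to 7.18 up to a Dbp of 10.68, Nfil3 declines with Dbp except for control 6, and Hlf is higher in penicillin 2, penicillin 3 and penicillin 4 than in 5 controls.

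Bhlhe40, a repressor that also responds to many stress signals, ordered the arrays within these sets differently. It stood at 9.40, 10.36 and 11.04 in penicillin livers and at 9.63, 10.21 and 11.07 in control livers. The highest arrays were control 1 (11.07), penicillin 5 (11.04) and control 3 (10.94), and the 4 arrays highest in Dbp reached 10.40 to 11.04. The other 6 arrays, lowest in Dbp, were also the lowest in Bhlhe40, at 9.40 to 10.32. Over all 12 arrays the r of Bhlhe40 with Dbp on deviations from group means was 0.753, and that of Hlf was 0.684. Those of Wee1, Ciart, Usp2 and Tef were 0.856 to 0.964, and that of Nfil3 was -0.887. The split of the arrays in Dbp, described below, largely sets these values. Within the sets higher and lower in Dbp, r was -0.536 and 0.038 for Bhlhe40 and 0.948 and -0.748 for Hlf. Control 1 and control 3 were also, with control 5, the arrays in which immediate early genes such as Fos and Egr1 were high: the mean deviation of that list was 2.08, 2.14 and 1.51 there, against -0.82 to -0.25 in the other controls and -0.89 to -0.62 in penicillin livers. Control 5 itself was at 9.91 for Bhlhe40. The part of the immediate early response in the Bhlhe40 level was not tested.

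Bhlhe41, the close relative of Bhlhe40, was near the bottom of the scale in every array, with a span of 0.26 on the log2 scale; its window holds an E-box. Without detection calls, such a level cannot be told from background.

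Of the 11 core clock genes tested, 6 (Arntl, Clock, Per2, Per3, Cry2 and Nr1d2) had the same 4 arrays all above or all below the other 8 in their brightest probeset. In the other 5 the sets overlapped. These arrays were picked as the highest in Dbp, and the share of all genes tested that separates them was not counted, so the 6 cannot be judged against it. Dimmer Per2 probesets that passed the filter overlapped: penicillin 5 was below control 5 in 1457350_at (6.24 against 6.26) and below control 1 in 1417603_at (5.43 against 5.70). Arntl, the activator known to peak opposite to Dbp, was at 4.55 to 5.44 in penicillin 1, penicillin 5, penicillin 6 and control 6, at 6.59 and 6.27 in control 1 and control 3, while the other 6 arrays held 7.90 to 8.64. Per3, an E-box and D-box target, was at 7.73 to 7.96 in the 4 arrays and 4.84 to 6.21 in the others. Nr1d2, which encodes the repressor Rev-erb beta, was likewise highest in them, at 10.97 to 11.16 against 9.70 to 10.48, and Clock was lowest there, at 7.11 to 7.57 against 8.03 to 8.66. Per1, the Per gene that responds to acute signals, was highest in control 1 and control 3 (8.97 and 8.96), above the 4 arrays (8.03 to 8.69), as Bhlhe40 was in control 1. The Cry1 repressor gene was at 5.15 to 5.84 in the 4 arrays and 4.78 to 6.85 in the others. Nr1d1, which encodes Rev-erb alpha, was at 6.25 to 6.97 against 6.05 to 7.16, and the activator gene Rora at 9.71 to 10.04 against 9.85 to 10.19. None of these 3 separated the arrays in the brightest probeset. Among dimmer Rora probesets that passed the filter, 1436326_at did separate them, at 8.85 to 9.21 against 9.315 to 9.56. So did 1424035_at, narrowly, at 4.68 to 4.86 against 4.875 to 5.29, while the others overlapped. Npas2 overlapped narrowly, at 3.93 to 4.19 against 4.18 to 6.18. Of the 11, 4 were higher and 7 lower in penicillin livers, and 0 passed the test.

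**Figure D3:**
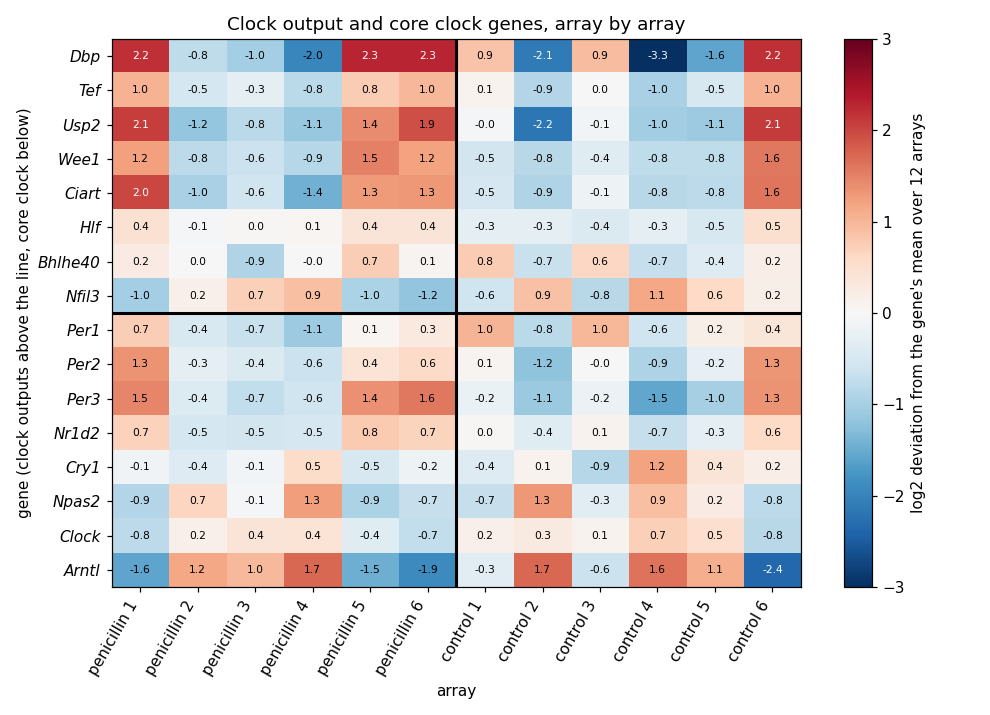
Deviation of each gene from its own mean over the 12 arrays (colour and printed value, log2 units), with arrays in columns, penicillin left of control, clock outputs above the horizontal line and core clock genes below it. The columns of penicillin 1, penicillin 5, penicillin 6 and control 6 are high for Dbp, Tef, Usp2, Wee1 and Ciart and low for Arntl and Npas2.

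Between the groups, 0 of the 8 tested genes passed the test (limma, Benjamini-Hochberg adjusted over 11899 genes), as did 0% of all genes tested, of which 950 (7.98%) had an unadjusted p under 0.05. The same fit without limma's variance prior also called 0 genes. Hlf, as higher, was the 1 gene of the 8 below that unadjusted level, which 4.33% of all genes tested reached as higher. A total of 7 genes had a higher mean in penicillin livers and Nfil3 a lower one, where 52.8% of all genes tested were higher. The median of the 8 differences was 0.47, against 0.01 over all genes tested, but each except that of Hlf had a 95% interval that included 0. For none of the 8 did the groups separate without overlap, which 0.412% of all genes tested did. The 4 arrays highest in Dbp were 3 penicillin livers and 1 control liver.

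Hlf gave the smallest p. It averaged 7.94 ± 0.22 in penicillin livers and 7.52 ± 0.35 in control livers (SD, n = 6 each), a difference of 0.42 (SE 0.15, 95% interval 0.09 to 0.74, unadjusted p = 0.0163, adjusted p = 0.570; limma). Penicillin livers stood at 7.67, 7.95 and 8.18 (lowest, median, highest) and control livers at 7.26, 7.44 and 8.20. All 6 penicillin arrays lay above 5 of the 6 controls, and control 6 was above all of them. The 4 arrays highest in Dbp (penicillin 1, penicillin 5, penicillin 6 and control 6) were also the highest in Hlf, at 8.105 to 8.205. The other 8 arrays were at 7.26 to 7.80. Without control 6 the difference was 0.55 (SE 0.10, adjusted p = 0.156). The second Hlf probeset differed by 0.32 (SE 0.14, adjusted p = 0.594; limma). It did not hold the order of the first: penicillin 4 (7.32) lay below control 1 (7.35), and control 6 (7.73) below penicillin 5 (7.86). The 4 arrays highest in Dbp were at 7.46 to 7.86 in it, and the others at 6.765 to 7.70. Without control 1, control 3 and control 5, whose immediate early genes stood apart, the difference was 0.24 (SE 0.18, adjusted p = 0.996). This fit was not planned. It takes out the arrays lowest in Hlf, control 5 (7.26) and control 3 (7.305), which lowers the difference by construction.

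Dbp averaged 10.27 ± 1.96 in penicillin livers and 9.25 ± 2.14 in control livers (SD, n = 6 each), a difference of 1.02 (SE 1.04, 95% interval -1.23 to 3.26, adjusted p = 0.867; limma) that did not exceed the spread within groups. Tef differed by 0.39 (SE 0.40), Usp2 by 0.78 (SE 0.77), Wee1 by 0.56 (SE 0.53) and Ciart by 0.52 (SE 0.62), with adjusted p-values of 0.849 to 0.889. Nfil3 differed by -0.46 (SE 0.44, 95% interval -1.42 to 0.50, adjusted p = 0.854) and Bhlhe40 by 0.05 (SE 0.30, adjusted p = 0.983). The intervals are wide: for Dbp they include both a several-fold rise and a lower level. Bhlhe40 was at 0.41 in the unplanned fit without control 1, control 3 and control 5. Control 1 (11.07) and control 3 (10.94) are among the arrays highest in Bhlhe40, so taking them out raises the difference by construction.

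**Figure D4:**
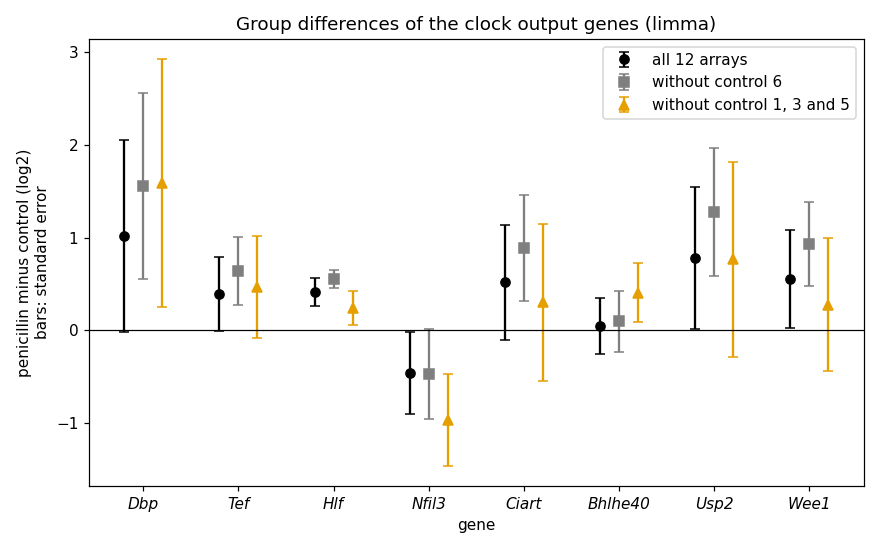
Penicillin minus control on the log2 scale for the 8 tested genes (points) with standard errors (bars), over all 12 arrays, without control 6, and without control 1, control 3 and control 5, whose immediate early genes stood apart. The difference of Hlf is 0.42, 0.55 and 0.24 in these fits, and that of Dbp is 1.02, 1.56 and 1.59 with far longer bars. The last of these fits was not planned.

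Whether the genes vary together within the groups was examined on deviations from group means. On that scale the arrays fell apart in Dbp: the widest gap between neighbouring arrays was 2.44, or 44.2% of the range, over the 33.3% taken as a split, with 6 arrays on each side, 3 from each group. On uncentred values the widest gap lay between the same sets of arrays but was 28.6% of the range, under that limit. Counting it as a split thus rests on the centring. Correlations were therefore taken within each set of 6 arrays, by an exact two-sided permutation test adjusted over 14 relations, whose smallest possible unadjusted p is 0.00139. None passed. In the set higher in Dbp, Wee1 had an r of 0.888 with Dbp (rho 0.943, exact p = 0.00417, adjusted p = 0.058, adjusted p = 0.212 for rho). Hlf had 0.948, Tef 0.895 and Usp2 0.893 there, each with an exact adjusted p of 0.058 for r and of 0.212 for rho, and Nfil3 had 0.924 and Ciart 0.768 (exact adjusted p = 0.084 each); Bhlhe40 had -0.536. Without control 1 and control 6, the arrays of this set farthest from its median in Dbp, 4 arrays were left, and r was 0.970 for Wee1, 0.920 for Hlf, 0.814 for Tef, 0.791 for Usp2, 0.712 for Ciart, 0.692 for Nfil3 and -0.435 for Bhlhe40 (exact adjusted p of 0.438 to 0.853). In the set lower in Dbp, Nfil3 had an r of -0.790 (exact adjusted p = 0.136), Hlf -0.748 (exact adjusted p = 0.164) and Tef 0.748 (exact adjusted p = 0.148), while Wee1 (0.013), Ciart (0.225), Usp2 (-0.170) and Bhlhe40 (0.038) showed little relation. Without penicillin 4 and control 4, the arrays farthest from its median, r was -0.779 for Nfil3, -0.906 for Hlf and 0.566 for Tef (exact adjusted p of 0.438 to 0.583). With centring, Nfil3 and Hlf thus had r of opposite sign in the 2 sets. Without centring the signs were alike: r was 0.976 and 0.390 for Hlf and -0.070 and -0.873 for Nfil3, higher set first. The difference between the sets was not tested.

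Over all 12 arrays, as a description of likeness that the split in Dbp largely sets, the genes most like Dbp within groups were Gpcpd1, a phosphodiesterase of membrane lipid breakdown (r = 0.968), the fructose transporter gene Slc2a5 (0.966), Tef (0.964), Mtss1 (0.961) and Per3 (0.954). The most opposite were Lnx2 (-0.988), Leo1 (-0.987), the RNA-binding protein gene Larp1 (-0.973), Arntl (-0.972) and Btbd1 (-0.967). Tef, Per3 and Arntl, known clock genes, were thus among the 10 of 11899 that the likeness picked. Lnx2 was at 7.29 to 8.45 and Gpcpd1 at 9.07 to 11.54 over the arrays. For Nfil3 the most alike were the signalling factor gene Stat5a (0.957), Pm20d2 (0.948), Mal2 (0.945), Lrp11 (0.934) and Pxdc1 (0.930), and the most opposite were Per1 (-0.931), the phosphate transporter gene Slc20a1 (-0.919), the autophagy kinase gene Ulk1 (-0.915), Jade1 (-0.906) and Zglp1 (-0.905).

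Genes known to lie under PAR bZIP control were all higher in mean in penicillin livers, 7 of 7 tested of 11 listed, where 52.8% of all genes tested were higher. Their median difference was 0.47, against 0.01 over all genes tested, and 0 passed, as did 0% of all. The differences ran from 0.08 (Nr1i3) to 1.50 (Cyp2b10), and 2 of the 7 had an unadjusted p under 0.05 (limma), which 7.98% of all genes tested had. The list was chosen with earlier results of these data known, so these counts describe it and are no test of it. Cyp2b10, a drug-metabolising enzyme, had the smallest p (difference 1.50, SE 0.33, adjusted p = 0.304), followed by the fatty acid hydroxylase Cyp4a14 (1.49, SE 0.59, adjusted p = 0.584) and the drug exporter Abcb1a (0.47, SE 0.22, adjusted p = 0.638). Cyp2b10 did not follow Dbp from array to array: control 6, high in Dbp, had the lowest Cyp2b10 of all arrays at 5.88. Penicillin 5, also high in Dbp, had the lowest of the penicillin livers at 7.38, although penicillin 1, high in Dbp too, had the highest at 9.06. Abcb1a was higher in penicillin 1, penicillin 5, penicillin 6 and control 6 (6.16 to 6.33) than in all other arrays (4.86 to 5.72). Alas1, the rate-limiting enzyme of haem synthesis, was at 12.34 to 12.88 in penicillin 1, penicillin 5, penicillin 6 and control 6, at 12.39 and 12.41 in control 1 and control 3, at 12.16 in penicillin 3, and as low as 9.27 in control 2; its group difference was 0.75 (SE 0.57, adjusted p = 0.797). Of 8 other rhythmic liver genes, 3 were higher and 5 lower, 0 passed, and the median difference was -0.07. The smallest p in that list was that of Nampt, an enzyme of NAD synthesis (0.34, SE 0.27, adjusted p = 0.804).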

How the data were processed

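Liver RNA of 6 penicillin-treated and 6 control mice was measured on Affymetrix arrays, labelled with a kit that copies from the 3-prime end, per the labels' protocols. The authors deposited RMA intensities, 1 per probeset, per the submitters' processing notes; no source used here names the software. The intensities were linear, so log2 was taken. RMA makes the distributions of arrays alike, which would hide a shift common to most genes.

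Of 45037 probesets other than controls, 34945 had 1 gene in the platform annotation; symbols were updated with RefSeq (GRCm38.p6). Probesets with a mean under the median (4.73) were left out, and each of the 11899 genes left was its brightest probeset. Penicillin minus control was tested with limma 3.58.1 in R 4.3.3 (two-sided, no trend, Benjamini-Hochberg over all genes, threshold 0.05). Tests were tried on simulated data. Nothing says that the mice were housed apart, so p-values measure the spread between these samples only, and 6 arrays per group limit the precision. The closest pair of arrays had a median absolute difference of 0.10 (log2) over genes, the most distant 0.19, so none was treated as a copy. The genes and lists were chosen with earlier results of these data known. The genes named were all members, list members with the smallest p (up to 3 a list) or used as context, and the 5 most and least like Dbp and Nfil3; Alas1 was added after its values were seen. Correlations were planned over 9 partners of Dbp, of which 7 were tested, and were taken in 2 sets of arrays. Same-numbered arrays did not deviate together throughout (r of -0.255 to 0.385), so the numbers were not taken as pairs.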

Additional observations from a re-analysis of the deposited data

Results flagged for a closer look

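In the control group, 1 array lay far from the other 5 for 3 genes, and it was control 6 each time. Its log2 intensity was 8.20 for Hlf, where the gap to the next control took 0.774 of the range of the group, 7.70 for Ciart (0.698) and 9.15 for Wee1 (0.812). These shares exceed Dixon's 95% critical value for a group of 6, which about 1 group in 20 would do by chance. Of the 18 groups examined (9 genes in penicillin and control livers), these 3 did so. The 3 genes vary together (r of 0.845 to 0.968 on deviations from group means over all arrays) and share the array. They are thus not independent, and their count cannot be set against that rate. In penicillin livers 3 of the 6 arrays (penicillin 1, penicillin 5 and penicillin 6) reached comparable levels for Hlf, Ciart and Wee1, so none stood alone.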

How the results depend on the processing

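Under 26 alternatives to the comparison, covering filters, normalization, variance priors, array weights, probeset choice, the scale, the threshold and the arrays used, limma called 0 genes each time, with 488 to 1466 features at an unadjusted p under 0.05. The 488 were counted without control 1, control 3 and control 5, and the 1466 with each probeset tested on its own. The replicate number as a block gave 0 calls, 1214 genes at an unadjusted p under 0.05 and a difference for Hlf of 0.42 (adjusted p = 0.392; limma). None of the 8 genes passed under any alternative (lowest adjusted p = 0.156, Hlf without control 6). When each array was left out in turn, the difference ran from 0.45 to 1.56 for Dbp, 0.22 to 0.64 for Tef, 0.36 to 0.55 for Hlf, -0.69 to -0.27 for Nfil3, 0.17 to 0.89 for Ciart, 0.42 to 1.28 for Usp2 and 0.31 to 0.93 for Wee1. That of Bhlhe40 ran from -0.09 to 0.24 and was negative without penicillin 5 (-0.090), control 2 (-0.08), control 4 (-0.08) or control 5 (-0.02). The fit without penicillin 1, penicillin 5, penicillin 6 and control 6, chosen after seeing the data, takes out the arrays highest in Dbp, of which 3 are penicillin livers, and so lowers the penicillin means of Dbp and genes that vary with it by construction; it turned the sign of Dbp (-0.19), Tef (-0.10), Nfil3 (0.35), Ciart (-0.38), Bhlhe40 (-0.23), Usp2 (-0.14) and Wee1 (-0.11), left that of Hlf at 0.36, and nothing is read from it. Without centring on group means, r with Dbp turned to -0.07 for Nfil3 in the 6 arrays higher in Dbp (0.924 with centring), and to 0.39 for Hlf (-0.748) and 0.20 for Usp2 (-0.170) in the 6 lower. With centring, leaving out the 2 arrays farthest from the median of Dbp turned that of Usp2 in the 6 lower to 0.73. Without centring, the 6 higher arrays less control 1 and control 3 were left at 11.96 to 12.05 in Dbp. There r turned to -0.673 for Tef, -0.983 for Hlf, -0.857 for Ciart, -0.744 for Usp2, -0.159 for Wee1 and 0.383 for Bhlhe40. In the 6 lower less penicillin 2 and control 4, that of Bhlhe40 turned to -0.583. None of these passed (exact adjusted p of 0.389 to 0.792). The files hold no detection calls, which limits what can be said of Bhlhe41.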
